A study of Mus musculus with 6 samples.

Results

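The genes described here are 40 mouse genes of cell adhesion: 12 integrin subunits, 13 junctional, adhesion and homing receptors, and 15 adaptor proteins of focal adhesions. They were chosen by symbol from a list of names, and each symbol matched 1 of the 47561 gene rows of the count tables. The RNA was that of LT-HSCs (long-term hematopoietic stem cells, which renew themselves and give rise to every blood lineage) obtained by sorting mouse bone marrow. The control group held 3 libraries labelled WT. The KO group held 3 libraries titled Piezo1 KO, that is, with a knockout of Piezo1, the gene of an ion channel that opens when the membrane is stretched. The genotype field of KO replicates 2 and 3 names another Piezo number than their titles do, as do the descriptions of several libraries, so the groups follow the titles. The labels give no age, sex, strain, Cre line, deleted exon or sorting markers, nor whether each library is a separate mouse, so every p-value measures only the spread between these libraries, which may be technical.

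Integrins are pairs of an alpha and a beta subunit that span the membrane and bind matrix proteins or receptors on neighbouring cells. Inside the cell, talin and kindlin bind the beta tail and switch the pair to its active form, and vinculin, paxillin, zyxin, filamin, alpha-actinin and the ILK, PINCH and parvin complex tie it to actin filaments. In bone marrow, integrins that contain the beta-1 subunit, the chemokine receptor CXCR4, CD44 and junctional adhesion molecules are known for holding stem cells in their niche and for homing after transplantation.

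Library totals ranged from 59435258 to 64653956 counts. Piezo1, the check of the labels, stood at 17.0, 7.02 and 24.3 CPM (counts-per-million, scaled to the effective library size) in the control libraries and at 4.28, 7.99 and 9.46 CPM in the KO libraries, with an edgeR adjusted p = 0.508, so control replicate 2 lay inside the KO range. Each of the 15 genes on the LT-HSC marker list had counts in every library, and their summed level was 1175 to 1666 CPM in control and 1170 to 1433 CPM in KO. The list also holds Cd48, Flt3 and Cd34, whose absence or low level marks LT-HSCs, so the sum does not measure purity. In control and KO, Cd48 averaged 23.0 ± 8.10 and 37.8 ± 22.6 CPM and Flt3 9.40 ± 0.9998 and 7.54 ± 3.60 CPM. Cd34 averaged 134 ± 53.5 and 93.2 ± 8.39 CPM. Within that sum the markers went both ways: Ly6a (Sca-1) averaged 327 ± 44.7 CPM in the control group and 123 ± 72.9 CPM in KO without overlap (DESeq2 adjusted p = 0.00720), Procr (EPCR) 48.7 ± 23.2 and 13.8 ± 11.4 CPM with overlap, and Kit 185 ± 68.4 and 320 ± 25.8 CPM without overlap. Control replicate 3 stood apart in granulocyte genes, with all 16 markers present and a sum of 12484 CPM, against 177 and 226 CPM in the other control libraries and 120 to 1178 CPM in KO. The sum of 16 megakaryocyte and platelet markers was 1044 to 1369 CPM in control and 2072 to 2999 CPM in KO, without overlap. The erythroid sum was 5397 to 11312 CPM in control and 9710 to 29637 CPM in KO. The 4 globin genes of that list were higher in every KO library, as in Hbb-bs at 77.8 to 1019 CPM in control and 2606 to 6835 CPM in KO, while the carbonic anhydrase Car2 was lower in every KO library (2614 ± 257 and 1633 ± 570 CPM) and Car1 averaged 2593 ± 1239 and 1116 ± 452 CPM. The sum of 12 stromal and endothelial markers was 74.0 to 117 CPM in control and 151 to 188 CPM in KO. Most of that rise lay in Vwf, also on the megakaryocyte list (27.0 ± 11.2 and 76.3 ± 17.1 CPM), and Tek, also on the LT-HSC list (16.5 ± 11.5 and 32.7 ± 7.15 CPM). Lepr and Cdh5 were at 0 counts in every library and Pdgfra at 2 counts in KO replicate 1 alone. Monocyte and dendritic markers summed to 606 to 1524 CPM in control and 340 to 602 CPM in KO, and those of B cells to 34.6 to 89.1 and 33.7 to 42.8 CPM. T and NK markers summed to 132 to 209 and 247 to 282 CPM, most of it Nkg7, and mast cell markers to 89.4 to 124 and 139 to 197 CPM, mostly Gata2. KO replicate 2 stood apart in T cell genes, with 271 to 668 counts of Cd3d, Cd3g, Trbc1 and Trbc2 and 7 of Cd3e. No other library held more than 55 counts of any of these. What part these cells had in the values below was not tested, and in such bulk libraries fewer cells of a type cannot be told apart from less RNA per cell.

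Of the 40 genes, 36 had enough counts to be tested. Itga1, Cdh2 and Parva had 0 counts in all 6 libraries, which allows a level of up to 0.0440 to 0.0539 CPM per library (3 counts; this and other such limits cover counting error only). Itga9 had 146 counts in control replicate 1, 39 in KO replicate 2 and 0 elsewhere, and was not tested. With edgeR's quasi-likelihood test and adjustment over all 16022 genes tested, 0 of the 36 passed an adjusted p under 0.05, as did 0% of all genes in either direction. At an unadjusted p under 0.05, 7 of the 36 had a higher level in KO and 1 a lower level, where 5.44% of all genes tested were higher and 5.59% lower. DESeq2, the tool named in the submitters' notes, called 4 higher (Spn, Itga6, Zyx and Actn4) and 1 lower (Jam3) at an adjusted p under 0.05, where it called 2.26% of all genes higher and 2.35% lower. Limma-voom called 0 genes at an adjusted p under 0.05; its unadjusted p was under 0.05 with a higher level in KO for 7.55% of all genes and with a lower level for 6.38%. For 8 of the 36 genes every KO library exceeded every control library, and for 2 the reverse held, against 10.7% and 8.76% of all genes.

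The class medians were unequal. KO over control, the median log2 fold change came to 0.78 over 10 tested integrin subunits, 0.61 over 14 adaptors and -0.07 over 12 junctional and homing receptors, against 0.03 over all genes tested. Once trends with transcript length and GC content were removed, these medians were 0.38, 0.37 and -0.17, against 0.02. The median transcript length was 4346 bases for the tested integrin subunits, 3786 for adaptors and 2526.5 for receptors. Over genes with counts and a length it was 2295 bases. The part of length alone was not tested. A positive sign was found in 9 of 10 integrin subunits, 12 of 14 adaptors and 6 of 12 receptors, where 52.2% of all genes were positive and 47.8% negative. A sign was counted whatever its SE, as for Itgb5 at 0.80 (SE 2.42) and Tgfb1i1 at 0.21 (SE 2.04). With length and GC trends removed the counts were 9 of 10, 10 of 14 and 4 of 12, against 8245 of 16022 genes. In limma-voom they were 8 of 10, 12 of 14 and 7 of 12, against 8869 of 16022 genes. These counts cover the genes that passed the filter on low counts, and no difference between the classes was tested.

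**Figure D1:**
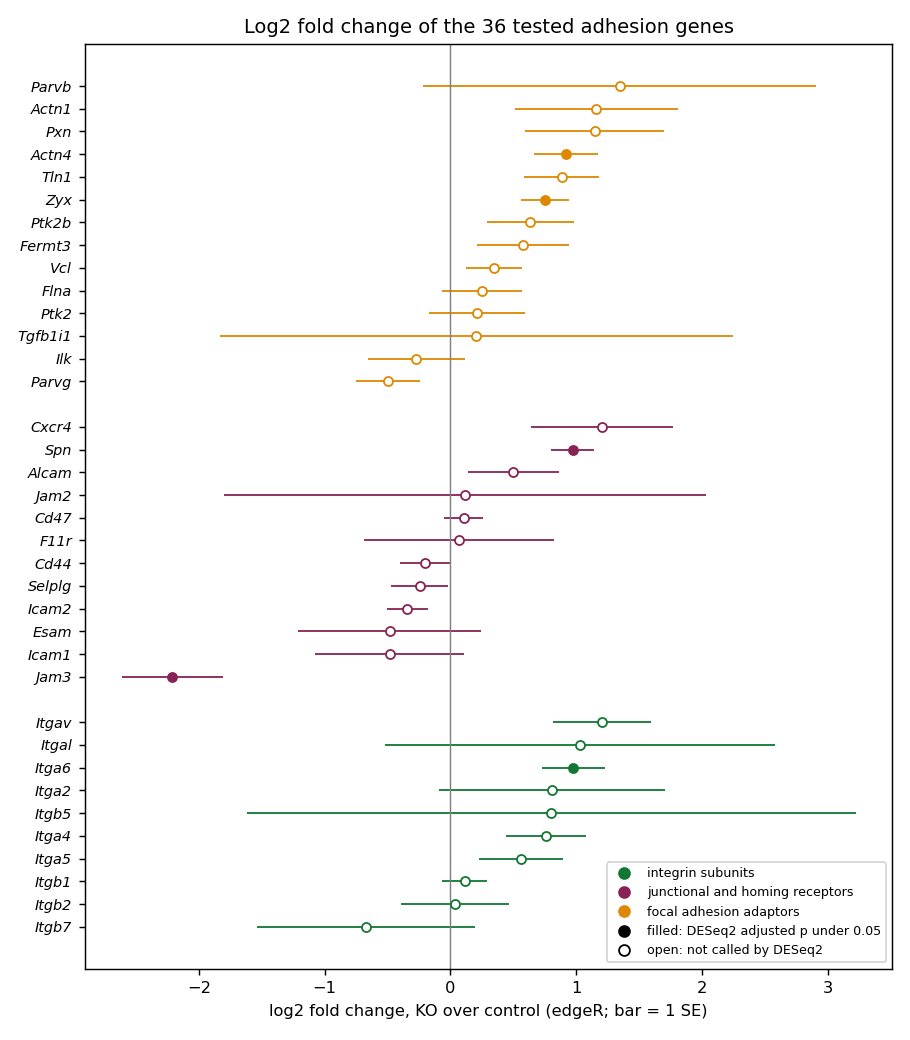
Log2 fold change of KO over control (horizontal axis, edgeR, bars of 1 SE) for the 36 tested genes, by class; filled points were called by DESeq2. Integrin subunits and adaptors lie mostly to the right of 0, and the receptors spread to both sides, from -2.21 for Jam3 to 1.21 for Cxcr4.

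Among integrin alpha subunits, Itga6, Itgav and Itga4 averaged higher in KO LT-HSCs, while their shared partner Itgb1 did not differ beyond its spread. Itga6 encodes the alpha-6 subunit, which binds laminin. It stood at 55.3, 93.0 and 64.7 CPM in the control libraries and at 118, 131 and 171 CPM in the KO libraries. Every KO library lay above every control library, with control replicate 2 nearest to the KO range. The means were 71.0 ± 19.6 CPM and 140 ± 28.0 CPM (SD, 3 libraries each, as for all means below). The log2 fold change was 0.98 (SE 0.25), with an edgeR adjusted p = 0.277 and a DESeq2 adjusted p = 0.0148. With any 1 library left out it remained between 0.79 and 1.199.

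Itgav, the alpha-v subunit of receptors for vitronectin and fibronectin, was low: 6.52, 6.24 and 10.9 CPM in the control group and 14.6, 18.3 and 21.8 CPM in KO. The groups did not overlap, and the means of 7.88 ± 2.61 and 18.2 ± 3.58 CPM gave a log2 fold change of 1.21 (SE 0.39), an edgeR adjusted p = 0.359 and a DESeq2 adjusted p = 0.0507. Gm13684 shares 634 exonic bases with Itgav on the other strand, and without a stated strand the reads there cannot be told apart. Itga4, the alpha-4 subunit of VLA-4, which binds VCAM1 and fibronectin, stood at 69.0, 100 and 169 CPM in the control group and 203, 166 and 204 CPM in KO. Control replicate 3 lay just above KO replicate 2, so the groups overlapped. The log2 fold change was 0.76 (SE 0.32) with an edgeR adjusted p = 0.445. It was 0.51 without control replicate 1, 1.17 without control replicate 3 and 0.39 once trends with transcript length and GC content were removed. Cerkl shares 1124 exonic bases with Itga4 on the other strand and held 1.27 to 6.14 CPM. Itga5, the alpha-5 subunit of the fibronectin receptor, averaged 14.9 ± 4.47 CPM in the control group and 21.9 ± 3.15 CPM in KO and overlapped (edgeR adjusted p = 0.603).

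Itgb1, the beta-1 subunit that pairs with these alpha chains, stood at 107, 143 and 146 CPM in the control group and 158, 134 and 135 CPM in KO. The KO libraries lay within or just above the control range. Its log2 fold change was 0.11 (SE 0.18), with an edgeR adjusted p = 0.893. Per kilobase of the longest annotated transcript, Itgb1 was the integrin subunit with the highest level, at 34.5 CPM per kb in control and 37.3 in KO, followed by Itga6 at 16.5 and 32.5 and Itga4 at 11.5 and 19.6 CPM per kb. A ratio within a library does not depend on how libraries are scaled, but it keeps any trend with transcript length or GC content. Itga4 has a transcript of 9767 bases, Itga6 of 4310 and Itgb1 of 3815. With such trends removed, the log2 fold changes were 0.39 for Itga4, 0.80 for Itga6 and 0.05 for Itgb1. The ratios below were not corrected for them. The ratio of Itga6 to Itgb1 (both in CPM per kb) was 0.460, 0.575 and 0.393 in control and 0.659, 0.863 and 1.12 in KO. For Itga4 over Itgb1 it was 0.253, 0.274 and 0.452 in control and 0.501, 0.484 and 0.590 in KO, and so without overlap. The summed alpha subunits Itga2, Itga4, Itga5, Itga6, Itga9 and Itgav came to 0.942 ± 0.0825 times Itgb1 in control and 1.62 ± 0.303 times in KO. These ratios were chosen after the values were seen and show unequal change of the 2 transcripts, not which of them differed. Of 11 ratios computed, 6 were higher in every KO library, Jam3 over F11r was lower in every KO library, and Tln1 over Fermt3, Parvg over Ilk, Zyx over Vcl and Cd44 over Cd47 overlapped.

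**Figure D2:**
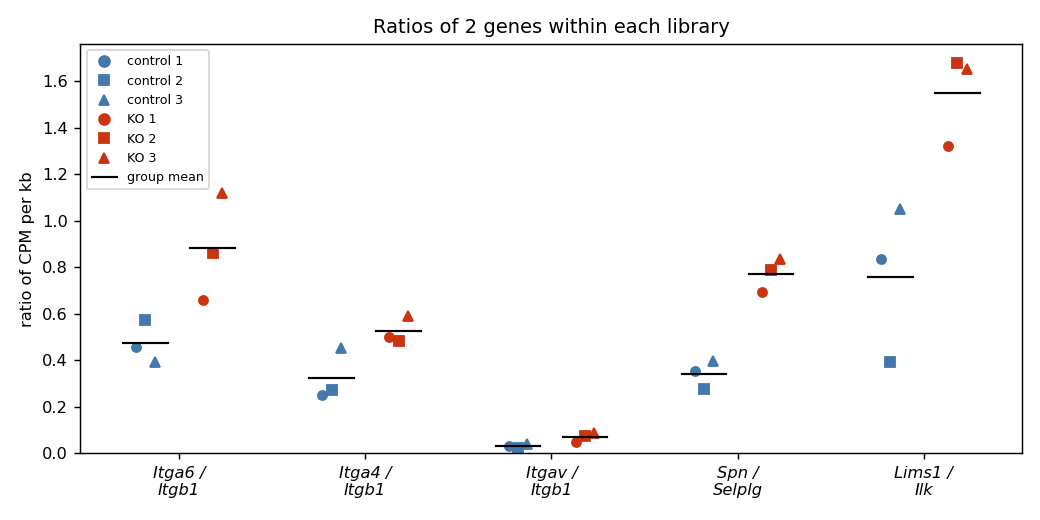
Ratio of 2 genes, each in CPM per kb of transcript, within each library (vertical axis); colours are groups, symbols are replicate numbers and bars are group means. The 5 shown are among the 6 in which the lowest KO library exceeds the highest control library, as for Itga6 over Itgb1 at 0.659 to 1.12 against 0.393 to 0.575.

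The remaining integrin subunits were low or overlapped widely. Itgb2, the beta-2 chain of leukocyte integrins such as LFA-1, stood at 31.0, 20.2 and 24.5 CPM in the control group and 21.7, 14 and 41.9 CPM in KO, and its KO libraries spanned the whole control range. Its partner Itgal averaged 3.22 ± 3.18 and 6.58 ± 2.87 CPM, with 0 counts in control replicate 1. Itgb7, which pairs with alpha-4, averaged 4.26 ± 2.49 CPM in the control group and 2.67 ± 1.68 CPM in KO, the one tested integrin subunit with a negative log2 fold change. Itga2, the alpha-2 collagen receptor chain of platelets, averaged 1.39 ± 0.704 and 2.43 ± 1.23 CPM, and Itgb5, a partner of alpha-v, 0.928 ± 1.61 and 1.62 ± 1.93 CPM. None of these 5 differed beyond its spread (edgeR adjusted p between 0.826 and 0.990). Itgal, Itgb5, Itga9, Jam2 and Parvb each had 0 counts in at least 1 library and over 100 counts in another, so their fold changes rest on which libraries held any reads.

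Of the integrin subunits, 3 of 10 tested (Itga4, Itga6 and Itgav) were higher at an unadjusted p under 0.05 and 0 were lower. The shares over all genes tested were 5.44% and 5.59%. Itga6 was higher with any 1 library left out, Itgav with any but KO replicate 3 left out, and Itga4 when control replicate 3 was left out but with no other library left out. Without control replicate 2 Itgb5 was higher instead of Itga4. The median of 0.78 became 0.40 without control replicate 1 and 0.38 after length and GC trends were removed. The sum of all 12 subunits was 289, 394 and 439 CPM in the control group and 556, 494 and 609 CPM in KO, without overlap.

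Among junctional adhesion molecules, Jam3 was the gene of the whole set that differed most. Jam3 encodes JAM-C, a receptor at cell junctions that is also found on hematopoietic stem cells and on platelets. It stood at 28.2, 33.2 and 20.2 CPM in the control group and 3.76, 7.77 and 6.04 CPM in KO. The highest KO library thus lay far below the lowest control library. The mean in KO, 5.86 ± 2.01 CPM, was 0.215 times the control mean of 27.2 ± 6.58 CPM. The log2 fold change was -2.21 (SE 0.40), with an edgeR adjusted p = 0.255 and a DESeq2 adjusted p = 2.50e-05. With any 1 library left out it lay between -2.47 and -2.00. Gm48796, annotated antisense to Jam3, shares 1159 exonic bases with it in GENCODE M21, and without a stated strand the reads of both cannot be told apart.

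The relatives of Jam3 overlapped between the groups. F11r, which encodes JAM-A, stood at 49.7, 63.2 and 4.96 CPM in the control group and 36.7, 53.8 and 33.0 CPM in KO. Control replicate 3 was far below the other 5 libraries, and the log2 fold change of 0.07 (SE 0.76) became -0.45 without that library. Jam2, which encodes JAM-B, a binding partner of JAM-C, stood at 6.01, 4.22 and 0 CPM in the control group and 5.72, 5.31 and 0.0641 CPM in KO. Both groups held 1 library at or near 0, and the edgeR adjusted p was 0.994. Esam, an adhesion molecule of endothelium and stem cells, showed the same low library, with 67.9, 106 and 8.57 CPM in the control group and 47.3, 45.6 and 37.7 CPM in KO. Its log2 fold change was -0.48 (SE 0.73), and -0.998 without control replicate 3, where it was lower at an unadjusted p under 0.05. Control replicate 3 is also the library with the granulocyte transcripts, and what part they had in its low F11r and Esam was not tested.

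Spn, the leukocyte sialoglycoprotein CD43, had the smallest SE among the genes described by library for a difference. It stood at 48.8, 56.3 and 51.1 CPM in the control group and 98.4, 95.8 and 112 CPM in KO. The groups lay well apart, and the KO mean of 102 ± 8.79 CPM was 1.96 times the control mean of 52.1 ± 3.83 CPM. The log2 fold change of 0.97 (SE 0.17) ranged from 0.83 to 1.02 over the 15 alternatives tried, with an edgeR adjusted p = 0.255 and a DESeq2 adjusted p = 6.67e-06. Selplg, the selectin ligand PSGL-1 and another sialomucin of leukocytes, stood at 68.6, 101 and 63.6 CPM in the control group and 70.2, 60.1 and 66.5 CPM in KO and overlapped. The ratio of Spn to Selplg in CPM per kb was 0.353, 0.276 and 0.398 in control and 0.694, 0.791 and 0.836 in KO.

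Cxcr4, the receptor for the niche chemokine CXCL12, was low in every library. It stood at 1.93, 3.88 and 4.21 CPM in the control group and 7.58, 6.74 and 8.79 CPM in KO, from 117 to 548 counts. The groups did not overlap, and the log2 fold change was 1.21 (SE 0.56) with an edgeR adjusted p = 0.494.

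Cd47, the signal that inhibits phagocytosis, stood at 468, 452 and 469 CPM in the control group and 495, 432 and 570 CPM in KO, and per kilobase it was the highest of the 40 genes. Icam2, a ligand of LFA-1, stood at 129, 108 and 114 CPM in the control group and 103, 90.2 and 84.3 CPM in KO. Its KO libraries lay just below the control libraries, with a log2 fold change of -0.34 (SE 0.16) and an edgeR adjusted p = 0.504. Cd44, the hyaluronan receptor, averaged 175 ± 29.6 and 152 ± 25.5 CPM and overlapped, with a log2 fold change of -0.20 that became -0.52 after length and GC trends were removed. Icam1, another LFA-1 ligand, averaged 16.5 ± 13.6 and 11.8 ± 2.52 CPM, with control replicate 2 alone at 32.1 CPM, and Alcam, a homophilic adhesion molecule, 10.9 ± 2.58 and 15.4 ± 2.98 CPM. In this class 1 of 12 tested genes was higher (Spn) and 1 lower (Jam3) at an unadjusted p under 0.05, near the shares over all genes of 5.44% and 5.59%. The class median of -0.07 took either sign: it was 0.21 without control replicate 2 and -0.37 without control replicate 3.

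**Figure D3:**
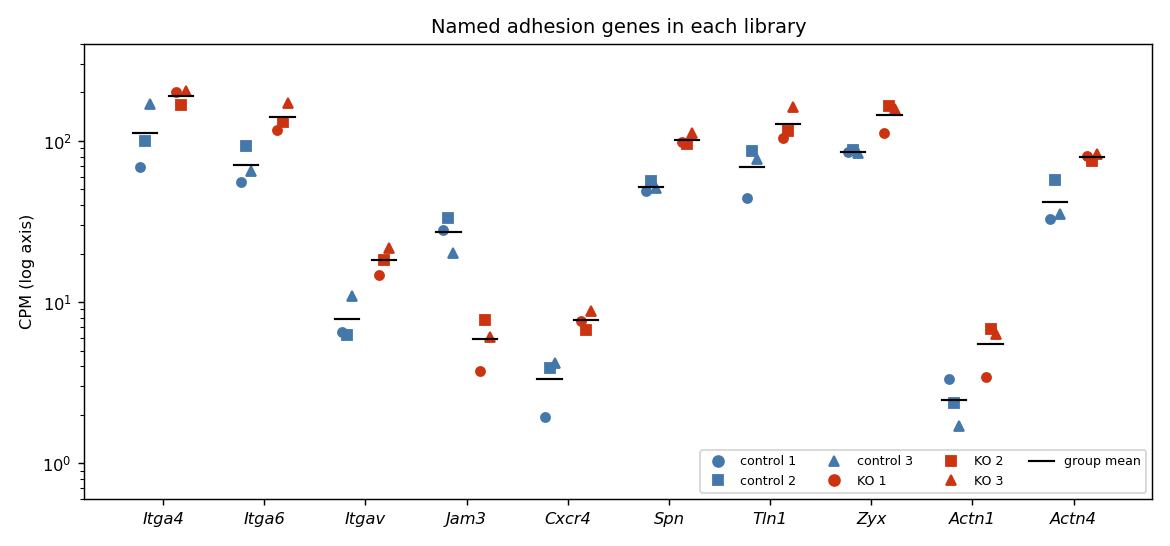
CPM on a log axis in each library for the 10 genes with an unadjusted p under 0.05, a DESeq2 call, or groups that did not overlap with a log2 fold change of at least 0.5 in size. Jam3 is the gene whose KO libraries (3.76 to 7.77 CPM) lie below the control libraries (20.2 to 33.2 CPM), and Itga4 is the one whose groups overlap.

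Among the adaptors, the transcripts of zyxin, alpha-actinin-4 and talin-1 were higher in KO at an unadjusted edgeR p under 0.05. A positive log2 fold change was found for 12 of 14 tested adaptors, against 52.2% of all genes, and for 10 of 14 after length and GC trends were removed. Zyx encodes zyxin, a LIM domain protein that gathers where focal adhesions and stress fibres bear tension. It stood at 85.5, 87.9 and 84.7 CPM in the control group and 112, 165 and 158 CPM in KO. The control libraries were nearly equal, and all KO libraries lay above them. The means were 86.0 ± 1.67 and 145 ± 28.6 CPM, a log2 fold change of 0.75 (SE 0.19), with an edgeR adjusted p = 0.276 and a DESeq2 adjusted p = 0.0131. Epha1, whose exons overlap those of Zyx on the other strand by 236 bases, held at most 2.76 CPM in any library.

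Actn4, a crosslinker of actin filaments, stood at 32.8, 57.6 and 35.4 CPM in the control group and 80.2, 74.8 and 83.2 CPM in KO. The groups did not overlap, and the log2 fold change was 0.92 (SE 0.26) with an edgeR adjusted p = 0.297 and a DESeq2 adjusted p = 0.0303. Its relative Actn1 was far lower, at 3.33, 2.36 and 1.71 CPM in the control group and 3.44, 6.79 and 6.33 CPM in KO. KO replicate 1 lay next to control replicate 1, and the log2 fold change was 1.162 (SE 0.65) with an edgeR adjusted p = 0.571. Gm47766 and Gm47767, annotated antisense to Actn1, share 363 and 88 exonic bases with it.

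Tln1, which encodes talin-1, the link between integrin tails and actin, stood at 44.1, 86.5 and 76.9 CPM in the control group and 105, 115 and 163 CPM in KO. The groups did not overlap, with means of 69.2 ± 22.2 and 128 ± 31.2 CPM. The log2 fold change of 0.89 (SE 0.30), with an edgeR adjusted p = 0.369, became 0.29 after length and GC trends were removed. Tln1 has one of the longest transcripts of the set, at 8393 bases. The median was 3786 bases over the 36 tested genes of the set and 2295 bases over all genes with counts and a length. Creb3, which overlaps Tln1 by 360 exonic bases on the other strand, held 15.96 to 41.6 CPM.

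Fermt3, which encodes kindlin-3, the kindlin of blood cells that activates integrins together with talin, was the most abundant adaptor per kilobase, at 48.6 CPM per kb in control and 72.5 in KO. It stood at 121, 193 and 63.9 CPM in the control group and 178, 172 and 213 CPM in KO. Control replicate 2 lay inside the KO range, and the log2 fold change of 0.58 (SE 0.37) was 0.996 without control replicate 2 and 0.26 without control replicate 3. Ilk, the integrin-linked pseudokinase, went from 70.9, 150 and 50.9 CPM in control to 70.2, 68.9 and 86.4 CPM in KO, again with control replicate 2 as the high library. Its log2 fold change was -0.27 (SE 0.39), and 0.28 without control replicate 2. Taf10 shares 2106 exonic bases with Ilk on the other strand and held 26.8 to 56.3 CPM.

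Parvins join ILK to actin. Parvg, the parvin of blood cells, stood at 59.0, 69.5 and 45.5 CPM in the control group and 48.7, 32.0 and 42.7 CPM in KO, with a log2 fold change of -0.50 (SE 0.25) and an edgeR adjusted p = 0.527. Parvb averaged 1.86 ± 1.70 and 4.72 ± 1.40 CPM, and Parva was not detected. Parvg and Ilk were the 2 adaptors with a negative log2 fold change.

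The kinases Ptk2 and Ptk2b, the scaffolds Pxn and Tgfb1i1, Vcl and Flna overlapped between the groups. Paxillin (Pxn), a scaffold protein, averaged 5.43 ± 2.86 CPM in the control group and 12.03 ± 4.33 CPM in KO, and the kinase Ptk2b (PYK2) 54.6 ± 26.6 and 84.8 ± 13.2 CPM. Ptk2, which encodes focal adhesion kinase, averaged 8.20 ± 0.297 and 9.49 ± 1.31 CPM. Vinculin (Vcl) averaged 88.4 ± 21.8 and 113 ± 15.4 CPM, and filamin A (Flna) 123 ± 48.6 and 147 ± 23.3 CPM. Ap3m1 overlaps Vcl by 2090 exonic bases on the other strand and held 31.7 to 77.6 CPM. The paxillin relative Tgfb1i1 (Hic-5) held at most 0.913 CPM. Their edgeR adjusted p-values were between 0.508 and 0.988. Control replicate 2 had the highest control value in Pxn, Ptk2b and Flna, and lay above KO replicate 1 in Ptk2b and Flna.

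In the adaptor class 3 of 14 tested genes (Tln1, Zyx and Actn4) were higher at an unadjusted p under 0.05 and 0 were lower. Over all genes tested, 5.44% were higher and 5.59% lower. Without control replicate 2 there were 6 higher adaptors, the others being Fermt3, Ptk2b and Pxn, and without KO replicate 3 there were 2. The count of higher genes over all genes tested moved too, from 871 of 16022 to 1207 of 16912 and 562 of 16886. The median of 0.61 became 0.37 after length and GC trends were removed.

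**Figure D4:**
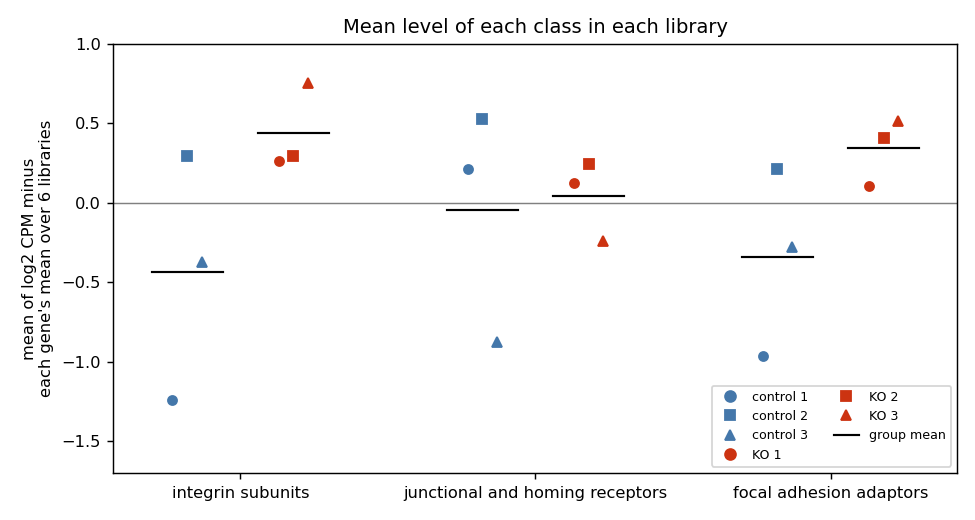
Mean over the tested genes of each class of log2 CPM minus each gene's own mean over the 6 libraries (vertical axis), per library; bars are group means. Control replicate 2 lies inside or next to the KO range for integrin subunits (0.30 against 0.26 to 0.76) and adaptors (0.21 against 0.11 to 0.51), while control replicate 1 is lowest in both (-1.24 and -0.96).

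By this mean, every KO library lay above control replicates 1 and 3 for integrin subunits and adaptors, and control replicate 2 did not lie below them all. Control replicate 2 had the lowest Piezo1 of the control group. KO replicate 1 had the lowest Piezo1 of the KO group and the lowest KO class means, at 0.26 and 0.11. A relation of these means to Piezo1 was not tested. Control replicate 1 had the fewest genes with counts (16264, against 16970 to 18540 in the other libraries), and 3 of the 12 integrin subunits and 3 of the 15 adaptors were at 0 there, against 1 to 3 and 1 to 2 in the other libraries. What part detection had in its low class means was not tested.

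Sequences around the start of the gene were searched for motifs where RefSeq's table of GRCm38.p6 held it, which it did for 26 of the 40 genes. The window runs from 250 bases before to 50 bases after the annotated start. The promoters of Spn, Zyx and Actn4, higher in KO by DESeq2, are shown because they are the called genes in that table. Capitals mark matches, on either strand, to CATTCC (bound by TEAD factors, the partners of the mechanically regulated coactivators YAP and TAZ) or to GGGCGG (the GC box of SP and KLF factors).
Spn (GRCm38.p6 chr7:127137774-127138073, minus strand): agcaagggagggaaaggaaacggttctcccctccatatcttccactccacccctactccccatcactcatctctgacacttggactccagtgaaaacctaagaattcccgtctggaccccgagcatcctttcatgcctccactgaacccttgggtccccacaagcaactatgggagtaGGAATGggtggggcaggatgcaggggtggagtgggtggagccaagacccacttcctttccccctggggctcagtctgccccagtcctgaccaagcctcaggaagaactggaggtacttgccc
Zyx (GRCm38.p6 chr6:42349578-42349877, plus strand): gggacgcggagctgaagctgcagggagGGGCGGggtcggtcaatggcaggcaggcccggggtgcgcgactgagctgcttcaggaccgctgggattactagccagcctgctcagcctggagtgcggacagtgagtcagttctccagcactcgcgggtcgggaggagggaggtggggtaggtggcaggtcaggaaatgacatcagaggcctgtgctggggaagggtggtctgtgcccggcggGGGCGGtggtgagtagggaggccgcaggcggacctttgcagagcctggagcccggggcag
Actn4 (GRCm38.p6 chr7:28962283-28962582, minus strand): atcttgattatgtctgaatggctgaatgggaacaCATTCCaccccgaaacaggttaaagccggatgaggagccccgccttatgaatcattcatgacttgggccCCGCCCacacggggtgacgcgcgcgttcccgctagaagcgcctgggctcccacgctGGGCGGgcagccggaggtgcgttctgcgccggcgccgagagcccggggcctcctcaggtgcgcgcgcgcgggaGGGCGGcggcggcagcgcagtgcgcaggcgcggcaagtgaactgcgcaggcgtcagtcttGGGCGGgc
CATTCC was present in 5 of the 26 promoters (Actn4, Flna, Itgb1, Spn and Vcl), or 19.2%, and in 14.7% of 32851 promoters of the same length. GGGCGG was present in 18 of 26, or 69.2%, against 35.7% of all promoters. The 26 are the first listed promoter of each gene, while the 32851 are all listed promoters of this length, expressed or not. The shares thus come from unlike sets. Of the other motifs searched on both strands, the ETS motif CCGGAAG was in the promoters of Cd47 and Ilk, the GATA motif AGATAA in that of Cd44, and the CArG box of serum response factor in that of Vcl, where 8.86%, 11.2% and 1.63% of all promoters hold them. None of the 5 motifs overlapped another in the 3 sequences shown. A match describes these letters only.

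Other adhesion genes were read from lists of the same pathway. Of 157 related genes, 119 were tested, of which 23 had a higher and 9 a lower level in KO with an unadjusted p under 0.05, against 5.44% and 5.59% of all genes tested, and their median log2 fold change was 0.29. DESeq2 called 13 higher and 5 lower, where it called 2.26% and 2.35% of all genes. Without control replicate 1 the lower count was 4 and without control replicate 3 it was 14. Over all genes tested it was 573 of 17121 and 1299 of 17038.

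Among the other integrin subunits, 6 of 14 were tested. At an unadjusted p under 0.05, 2 were higher, against 5.44% of all genes: Itga2b and Itgb3, the subunits of the platelet fibrinogen receptor. Itga2b stood at 28.8, 47.0 and 37.7 CPM in the control group and 85.2, 122 and 141 CPM in KO. Itgb3, which also pairs with alpha-v, stood at 13.5, 18.6 and 12.9 CPM in the control group and 36.3, 37.4 and 49.5 CPM in KO, with a log2 fold change of 1.45 (SE 0.28). Both also belong to the megakaryocyte marker list, whose sum was higher in every KO library.

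Of 36 tested genes of integrin activation and adaptors, 9 passed an unadjusted p under 0.05 with a higher level in KO and 1 with a lower level. Over all genes the shares were 5.44% and 5.59%. Lims1, which encodes PINCH-1, the partner of ILK, stood at 143, 142 and 129 CPM in the control group and 224, 279 and 344 CPM in KO (DESeq2 adjusted p = 0.000151). Lims1 over Ilk in CPM per kb was 0.836, 0.392 and 1.05 in control and 1.32, 1.68 and 1.65 in KO. Rsu1, which binds PINCH-1, averaged 155 ± 28.1 CPM in the control group and 120 ± 6.45 CPM in KO (edgeR log2 fold change -0.37, SE 0.18). Of the other parts of the complex of ILK, PINCH and parvin, Ilk (log2 fold change -0.27, SE 0.39), Parvg (-0.50, SE 0.25) and Parvb (1.35, SE 1.56) overlapped between the groups. The value of Ilk was 0.28 without control replicate 2, so these signs do not give a direction for the complex. Rap1b, the small GTPase that recruits talin to integrins, stood at 333, 409 and 407 CPM in the control group and 601, 950 and 889 CPM in KO, with a log2 fold change of 1.09 (SE 0.21). The adaptor Grb2 had one of 1.199 (SE 0.34).

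Of 36 other tested adhesion, junction and homing receptors, 6 passed an unadjusted p under 0.05 upward and 4 downward, against 5.44% and 5.59% of all genes. The tetraspanins Cd81 and Cd82 averaged 486 ± 80.0 against 291 ± 24.9 CPM and 50.03 ± 15.6 against 24.0 ± 1.83 CPM in control and KO. Ctnnd1, p120 catenin of cadherin junctions, averaged 25.0 ± 5.19 and 49.6 ± 6.49 CPM. Of 14 tested ligand and matrix genes, 2 were higher and 0 lower: Vwf, von Willebrand factor, at 27.0 ± 11.2 and 76.3 ± 17.1 CPM, and Thbs1, thrombospondin-1, a ligand of CD47, at 0.257 ± 0.132 and 2.71 ± 0.386 CPM.

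**Figure D5:**
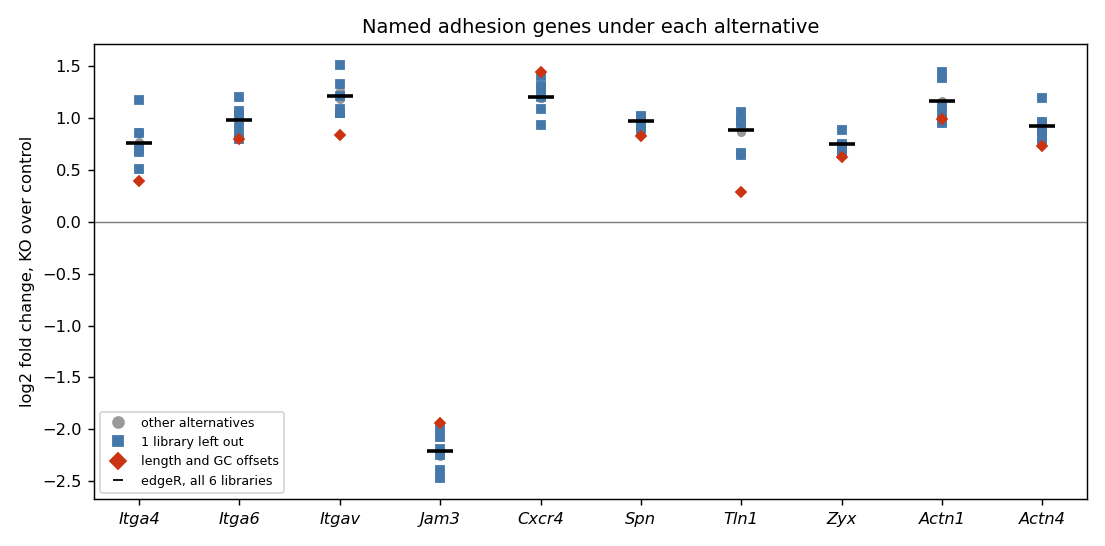
Log2 fold change of KO over control (vertical axis) of the 10 named genes with all 6 libraries in edgeR (black bar), with 1 library left out (squares), with length and GC trends removed (diamonds) and under the other alternatives (circles). No gene changes sign; Tln1 moves furthest toward 0, to 0.29, and Jam3 ranges from -2.47 to -1.94.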

How the data were processed

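TRIZOL was used to extract the RNA of sorted LT-HSCs and a TruSeq RNA kit to prepare it for sequencing, per the labels' protocols. The authors deposited whole-number counts per gene, not normalized. The submitters' processing notes list, without roles or settings, DESeq2 (version 2.11.40.6), HISAT2 (2.1), featureCounts (1.6.4), bcl2fastq (2.19), cutadapt (1.16.5) and the mouse build mm10. Strand and the handling of reads that map to several places are not given in the sources used here. Of 47561 rows, 2046 carry identifiers of a transcript assembler, so counts of overlapping genes may have moved between rows.

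Counts were filtered with filterByExpr, scaled by TMM and tested over all 6 libraries with the quasi-likelihood F test of edgeR 4.0.16 in R 4.3.3, with Benjamini-Hochberg adjustment over 16022 genes. The SE is the size of the log2 fold change divided by the square root of F. The same steps were tested on simulated counts. CPM per kb used the longest transcript of the GENCODE M21 basic set per symbol. Alternatives were other size factors and filters, DESeq2 1.42.0, limma-voom 3.58.1, a replicate block, offsets for length and GC content (natural splines with 4 degrees of freedom on each, for the 91.1% of tested genes with values), and each library left out. DESeq2 restricted to the genes edgeR tested was added after seeing the data.

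The genes, classes and related lists were chosen with earlier results of these data known, so counts over them are descriptions. Values in every library were given for members with an unadjusted p under 0.05, a DESeq2 call, or no overlap and a log2 fold change of at least 0.5 in size, and for the 3 members of each class with the highest level per length. Those of Itgb2, F11r, Jam2, Esam and Parvg were added after their values were seen. Up to 3 genes with the smallest p were named per related list, 1 of which is counted in the total of related genes and not reported here, and Rsu1 was named after its values were seen. Replicates were compared by a chi-square of their counts, which came to 132 or more per gene for every pair of 1 group, more than counting noise gives; this does not show whether libraries came from separate mice or RNA samples.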

Additional observations from a re-analysis of the deposited data

How the results depend on the processing

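The 10 genes plotted by library (Itga4, Itga6, Itgav, Jam3, Cxcr4, Spn, Tln1, Zyx, Actn1 and Actn4) kept their sign under each of the alternatives that gave them a value. Itga6, Jam3, Spn, Zyx and Actn4 passed an adjusted p under 0.05 in both runs of DESeq2 and in no other alternative. Over all genes, DESeq2 called 373 higher and 388 lower (1401 and 1427 at an unadjusted p under 0.05), and 244 and 286 on the genes edgeR tested, where edgeR called 0. With at least 5 CPM in 3 libraries 1 gene was lower, and with 1 library left out 0 to 1 were higher. Leaving out 1 library gave 562 to 1339 genes higher and 573 to 1299 lower by unadjusted p. Counts of integrin subunits that were higher ranged from 1 to 3, of adaptors higher from 2 to 6 and lower from 0 to 1, of receptors lower from 1 to 2, and of related genes lower from 4 to 14. Of the receptors, 2 were higher and 2 lower in DESeq2 and with length and GC offsets, and 2 were higher in limma-voom. The receptor median, -0.07, was 0.074 in limma-voom and 0.078 with the replicate block, and -0.37 to 0.21 with 1 library left out; the cause was not tested.

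The replicate numbers were not taken to pair the libraries: the correlations of same-numbered deviations from the group means were 0.038, 0.016 and 0.033 over 16022 genes, although every library correlated best with its own number, a hint from the data and not from the design. The replicate block gave 835 genes higher and 762 lower by unadjusted p, against 871 and 896, and changed the call of none of the named genes. The common biological coefficient of variation was 0.755, so the spread between libraries, and not their depth, set the precision for most genes.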
